A study of Homo sapiens with 6 samples.

Results

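The cyclins and kinases that carry a cell through G1 and into S phase were examined in Y79 cells with a hairpin against MYCN: the D-type cyclins CCND1, CCND2 and CCND3 with their kinases CDK4 and CDK6, the E-type cyclins CCNE1 and CCNE2 and cyclin A2 (CCNA2) with their kinase CDK2, and the phosphatase CDC25A. All 10 genes, picked by name, were found among the 17013 genes with values. Y79 is an established human retinoblastoma line with an amplified MYCN gene and no functional RB protein. Its cells were transduced with either an shRNA against MYCN (genotype label MYCN knockdown, 3 libraries) or a control shRNA (genotype label MYCN wild-type, 3 libraries), in 1 labelled batch, and poly(A) RNA was sequenced from both fragment ends. The series text calls the libraries independent biological replicates. Neither the hairpin sequences nor their number is given in the sources used here, and the line is a single one, so the spread between hairpins or between lines was not measured.

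In the textbook scheme, growth signals raise the D cyclins, which switch on CDK4 and CDK6 to phosphorylate RB and its relatives. Released E2F factors then transcribe the E cyclins, cyclin A2, CDK2 and CDC25A. Cyclin E with CDK2 starts DNA replication, cyclin A2 with CDK2 carries S phase forward, and CDC25A removes the phosphates that hold these kinases inactive. MYC proteins are known activators of CCND2, CDK4 and CDC25A in other cells, and Y79 cells lack the RB brake on which the D cyclins normally act.

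Depth was 15490263 to 15762707 estimated counts in the MYCN shRNA libraries and 15515994 to 16078416 in the control libraries, and each member had between 148 and 4755 counts in any library. Levels are CPM, each gene's counts as a part per 1000000 of its library, scaled by TMM factors, which adjust libraries for differences in RNA composition. MYCN itself measured 2413.4, 2283.8 and 2195.2 CPM with its shRNA, against 3045.8, 3127.9 and 2875.8 CPM with the control shRNA, a log2 fold change of -0.39 ± 0.043 (SE; edgeR adjusted p = 8.0e-11), or -0.21 when libraries are scaled by size alone. The targeted transcript was thus lower in 3 of 3 libraries and remained abundant. Photoreceptor and retinoblastoma markers were present in both groups, with 1517.9 to 1571.0 summed CPM with MYCN shRNA and 1776.5 to 1877.5 with the control over 8 genes. The sum and most of its genes went opposite ways: 6 of the 8 rose (CRX, GNAT2, RCVRN, ARR3, PDE6H and THRB, by 0.36 to 2.45 on the log2 scale), while the abundant OTX2 and NEUROD1 fell by 0.67 and 0.74. Pigment epithelium markers summed to 11.3 to 13.3 and 3.71 to 3.83 CPM over the 5 of 6 in the table, fibroblast markers to 5.06 to 6.43 and 2.22 to 2.67 over 5 of 6, and immune markers to 5.56 to 6.47 and 4.14 to 4.74 over 4 of 5. Of the 3 pigment epithelium markers tested, 2 were called higher and 0 lower. RPE65 rose by 4.22 on the log2 scale (4.72 CPM with MYCN shRNA, 0.244 with control shRNA) and BEST1 by 1.25. Of the Müller glia list, GLUL and VIM held most of 1171.6 to 1203.8 and 1149.7 to 1195.0 CPM, while RLBP1, GFAP and AQP4 had at most 2 counts in a group. These similar sums hide opposite changes, since GLUL fell by 0.35 and VIM rose by 0.68 on the log2 scale. The part of these shifts in the results below was not tested. In bulk RNA, fewer cells of a type or phase and less RNA per cell cannot be told apart.

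The comparison asks how these transcripts differ when MYCN is targeted. All 3 D cyclins fell, both E cyclins rose, and the remaining members moved by less than 2-fold, with CDK2, CDC25A and CDK4 higher and CCNA2 and CDK6 lower. Thus 5 of the 10 were called higher and 5 lower (edgeR quasi-likelihood test, adjusted p under 0.05 over all 12819 tested genes). Most of the transcriptome was called too: 75.8% of tested genes passed, 38.0% higher and 37.9% lower, so a call alone does not set these genes apart. The groups' libraries did not overlap for any of the 10, as for 76.8% of tested genes. CCND1, CCNE1 and CCNE2 passed with at least a 2-fold change, which 14.5% of tested genes did.

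**Figure D1:**
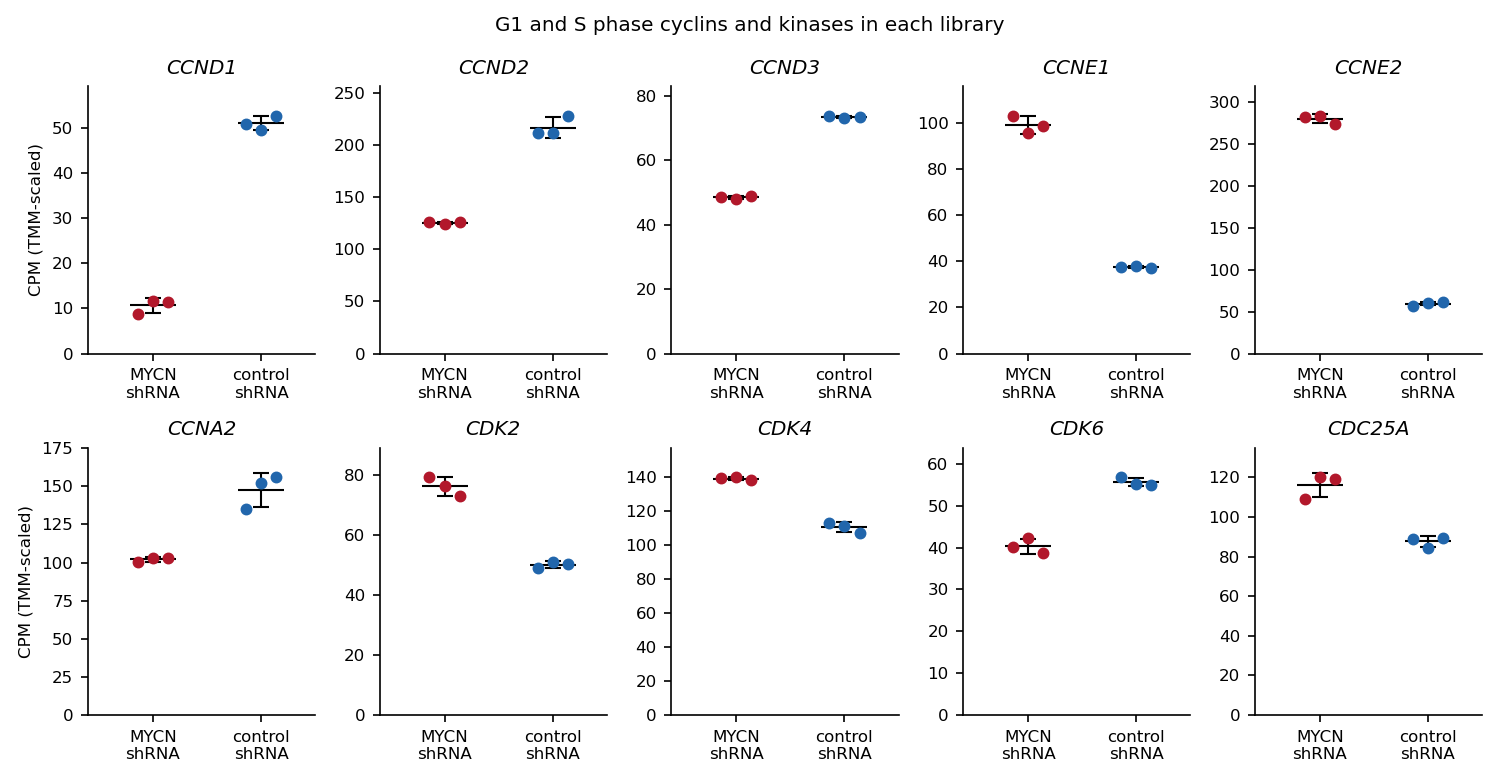
Level of each member in each library, as TMM-scaled CPM on axes that start at 0. Points are libraries (MYCN shRNA red, control shRNA blue), horizontal bars are means and whiskers 1 SD (n = 3 each). The groups do not overlap in any panel, and CCND1 (10.7 against 51.0 CPM) and CCNE2 (280.5 against 59.5 CPM) are furthest apart.

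The D cyclins, the regulatory subunits of CDK4 and CDK6, were lower in every MYCN shRNA library. CCND1 had 8.81, 11.7 and 11.5 CPM with MYCN shRNA, against 50.9, 49.5 and 52.7 CPM with control shRNA. The highest MYCN shRNA library lay far below the lowest control library. The log2 fold change of cyclin D1 was -2.26 ± 0.076 (SE), with an edgeR adjusted p of 2.3e-27, which puts it at 0.209 times the control level (interval of 1.96 SE, from 0.189 to 0.232). Only 0.39% of tested genes had a lower log2 fold change. MYCN shRNA replicate 1 was the lowest library, and the coefficient of variation was 15.2% in that group against 3.09% in controls. Without this library the log2 fold change was -2.13.

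CCND2, the most abundant D cyclin by CPM, had 126, 124 and 126 CPM with MYCN shRNA, against 211, 211 and 228 CPM with control shRNA. It fell by 0.79 ± 0.041 (edgeR adjusted p = 4.8e-21). CCND3 had 48.7, 48.1 and 49.0 CPM with MYCN shRNA, against 73.9, 73.2 and 73.5 CPM with control shRNA, and fell by 0.60 ± 0.050 (edgeR adjusted p = 3.6e-14). Its libraries lay close together, with coefficients of variation of 0.894% with MYCN shRNA and 0.429% with control shRNA.

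The 3 D cyclins did not fall by the same amount. Ratios of counts within a library do not depend on the scaling between libraries, and 6 pairs of members were compared in this way. CCND1 stood at 0.0700, 0.0947 and 0.0914 counts per CCND2 count with MYCN shRNA and at 0.241, 0.234 and 0.232 with control shRNA, a difference of -1.48 in the mean log2 ratio. Against CCND3, the ratio of CCND1 was 0.181, 0.243 and 0.235 with MYCN shRNA and 0.689, 0.677 and 0.717 with control shRNA, a log2 difference of -1.67. CCND2 and CCND3 were closer, at 2.59, 2.57 and 2.58 CCND2 counts per CCND3 count with MYCN shRNA and 2.85, 2.89 and 3.10 with control shRNA, a log2 difference of -0.19. In each of the 6 pairs compared the groups did not overlap, and the exact permutation test (two-sided) gave p = 0.10 (Benjamini-Hochberg 0.10), the smallest that 3 against 3 libraries allow. No ratio could therefore pass 0.05. How often other gene pairs separate in this way was not computed. Single genes did so for 76.8% of tested genes, so separation alone does not set these pairs apart.

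The E cyclins, which activate CDK2 at the G1 to S transition, were higher in every MYCN shRNA library. CCNE2 had 283, 284 and 274 CPM with MYCN shRNA, against 57.1, 60.3 and 61.0 CPM with control shRNA. The lowest MYCN shRNA library was more than 4 times the highest control. CCNE2 rose by 2.24 ± 0.043 (edgeR adjusted p = 6.5e-36), to 4.72 times the control level (4.45 to 5). It ranked 255 of 12819 by log2 fold change while 91.3% of tested genes were less abundant.

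CCNE1 had 103, 95.5 and 98.4 CPM with MYCN shRNA, against 37.5, 38.1 and 37.2 CPM with control shRNA. It rose by 1.39 ± 0.051 (edgeR adjusted p = 4.4e-26), to 2.63 times the control level (2.45 to 2.82), and 94.6% of tested genes had a lower log2 fold change. The pair shifted toward cyclin E2: CCNE1 stood at 0.362, 0.336 and 0.359 counts per CCNE2 count with MYCN shRNA and at 0.657, 0.632 and 0.610 with control shRNA, a log2 difference of -0.85.

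**Figure D2:**
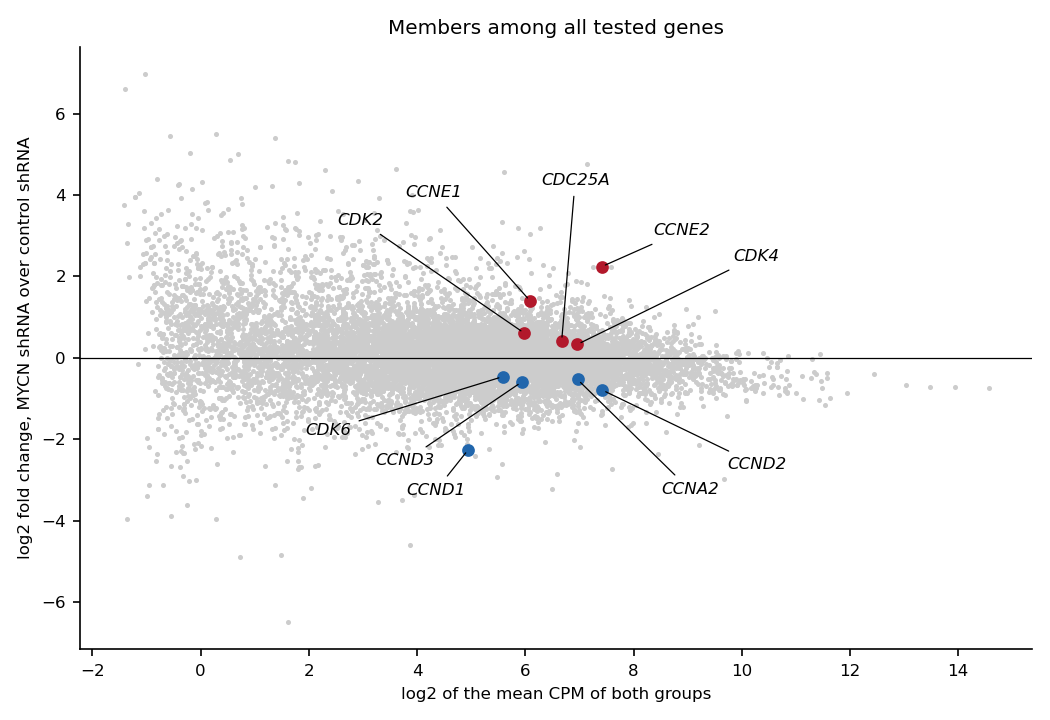
Log2 fold change (MYCN shRNA over control shRNA) against log2 of the mean CPM of both groups for the 12819 tested genes, in grey, with the 10 members coloured (higher red, lower blue). CCNE2 at 2.24 and CCND1 at -2.26 lie at the edges of the cloud at their abundance, and CDK4 at 0.33, CDC25A at 0.41 and CDK6 at -0.46 lie inside it.

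The kinase partners of the D cyclins went opposite ways. CDK4 had 139, 139.7 and 138 CPM with MYCN shRNA, against 113, 111 and 107 CPM with control shRNA, and rose by 0.33 ± 0.042 (edgeR adjusted p = 3.0e-09). CDK6, its close relative, had 40.2, 42.2 and 38.6 CPM with MYCN shRNA, against 56.8, 55.2 and 54.9 CPM with control shRNA, and fell by 0.46 ± 0.055 (edgeR adjusted p = 5.3e-10). CDK4 counts per CDK6 count were 3.44, 3.31 and 3.56 with MYCN shRNA and 1.98, 2.02 and 1.95 with control shRNA, a log2 difference of 0.79. Both changes were modest against the rest of the table, since 71.3% of tested genes had a lower log2 fold change than CDK4 and 19.9% a lower one than CDK6.

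CDK2, the kinase of cyclins E and A, moved in the direction of the E cyclins. It had 79.4, 76.4 and 73.2 CPM with MYCN shRNA, against 49.0, 51.1 and 50.5 CPM with control shRNA, and rose by 0.60 ± 0.051 (edgeR adjusted p = 4.7e-14). CDC25A, the phosphatase that activates cyclin-CDK complexes, had 109, 120.1 and 119 CPM with MYCN shRNA, against 89.1, 84.4 and 89.6 CPM with control shRNA, and rose by 0.41 ± 0.046 (edgeR adjusted p = 2.0e-10).

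Cyclin A2, which binds CDK2 in S phase and CDK1 later, moved against the E cyclins. CCNA2 had 100.4, 103 and 103 CPM with MYCN shRNA, against 135, 152 and 156 CPM with control shRNA, and fell by 0.53 ± 0.046 (edgeR adjusted p = 8.7e-14). Its controls were the most spread among the members, with a coefficient of variation of 7.38%, and control replicate 1 was the lowest of them. Without that library the log2 fold change was -0.60. CCNA2 counts per CCNE1 count were 0.980, 1.08 and 1.04 with MYCN shRNA and 3.61, 3.98 and 4.19 with control shRNA, a log2 difference of -1.92 and the largest of the 6 pairs.

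The promoter sequences (RefSeq, GRCh38.p14, 250 bases before to 50 after a gene start) of the members were searched for the E-box CACGTG, which MYC-MAX dimers bind, and for the E2F forms TTTCCCGC, TTTCGCGC, TTTGCCGC and TTTGGCGC, on both strands. Entries were found for 6 of the 10 members (CCND3, CCNE1, CCNA2, CDK4, CDK6 and CDC25A). Of the 35116 promoters in the table, 7.26% hold the E-box and 3.31% an E2F form. The 3 promoters that hold an E-box or an E2F form are shown because they belong to genes that moved in different directions, with those matches in capitals and each read 5′ to 3′ on the minus strand, from which all 3 genes are transcribed: CDK4 at chr12:57752261-57752560, CDK6 at chr7:92836524-92836823 and CDC25A at chr3:48188368-48188667.
CDK4: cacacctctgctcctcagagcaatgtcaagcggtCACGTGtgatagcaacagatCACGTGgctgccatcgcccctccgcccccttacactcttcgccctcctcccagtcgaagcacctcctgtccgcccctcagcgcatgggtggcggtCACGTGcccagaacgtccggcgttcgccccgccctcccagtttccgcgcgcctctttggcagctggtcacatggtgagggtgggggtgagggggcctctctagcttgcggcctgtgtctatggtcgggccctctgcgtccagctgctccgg
CDK6: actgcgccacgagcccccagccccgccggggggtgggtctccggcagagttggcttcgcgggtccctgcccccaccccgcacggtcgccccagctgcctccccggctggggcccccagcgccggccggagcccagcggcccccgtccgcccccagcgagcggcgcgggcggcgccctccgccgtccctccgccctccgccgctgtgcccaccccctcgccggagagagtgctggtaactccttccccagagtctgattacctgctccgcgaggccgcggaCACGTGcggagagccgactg
CDC25A: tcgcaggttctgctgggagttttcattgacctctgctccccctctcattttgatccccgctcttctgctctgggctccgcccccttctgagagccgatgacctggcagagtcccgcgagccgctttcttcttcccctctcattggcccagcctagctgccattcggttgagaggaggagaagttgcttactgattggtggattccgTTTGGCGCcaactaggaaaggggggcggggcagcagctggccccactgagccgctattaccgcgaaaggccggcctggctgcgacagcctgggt
CDK4, which rose, has 3 E-boxes, whose first bases lie at -216, -196 and -101 from the start, and CDK6, which fell, has 1 E-box at 31. CDC25A, which rose, has 1 E2F form, TTTGGCGC, at -44. The windows of CCND3, CCNE1 and CCNA2 and the other CDK6 window hold neither set of letters. The CCAAT box (CCAAT, in 34.6% of all promoters) occurs in 4 of the members' 9 entries, from CCND3, CCNA2 and CDC25A. The GC box (GGGCGG, in 45% of all) occurs in 7 of the 9, at least 1 for each of the 6 members. A match is a description of letters, and binding was not measured.

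A pair of 7-base sequences, AGCACAA and GTGGATC, was put forward by an earlier search of these same fold changes, so a match supports nothing here. Either occurs in 38.2% of 12508 tested genes with a coding transcript model (GENCODE 29) and in 3 of the 10 members (30%). In the 3' untranslated region alone the shares are 17.1% of those genes and 3 of the 10 members (30%). The matches in 3' untranslated regions are shown with 10 bases on each side and the match in capitals.
CCND3: aattgctttgAGCACAActttaagagg
CDK4: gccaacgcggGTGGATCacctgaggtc
CDK6: gaaaaattaaAGCACAAacattctggc
CDK6 also has GTGGATC in its coding sequence. In the coding transcript model searched for each gene, neither sequence occurs for CCND1, CCND2, CCNE1, CCNE2, CCNA2, CDK2 or CDC25A. Other transcripts of these genes were not searched, and whether either sequence bears on any change was not tested.

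Among the scalings between libraries that were run, the sizes of these changes differed but not their directions. Each of these scalings is relative to the libraries' own counts, so a change in total RNA per cell was not measured. When libraries were scaled by size alone, the median of all tested genes moved up by 0.18 on the log2 scale and 66.3% of calls were higher (6597 higher, 3348 lower) instead of 50% (4865 higher, 4857 lower). The members shifted with it: CCND1 was at -2.08, CCND2 at -0.61, CCND3 at -0.42, CCNA2 at -0.35 and CDK6 at -0.28, and CDK4 at 0.51, CDC25A at 0.59, CDK2 at 0.79, CCNE1 at 1.57 and CCNE2 at 2.42. Each of the 10 kept its direction and its call (largest edgeR adjusted p = 2.8e-05, CDK6).

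**Figure D3:**
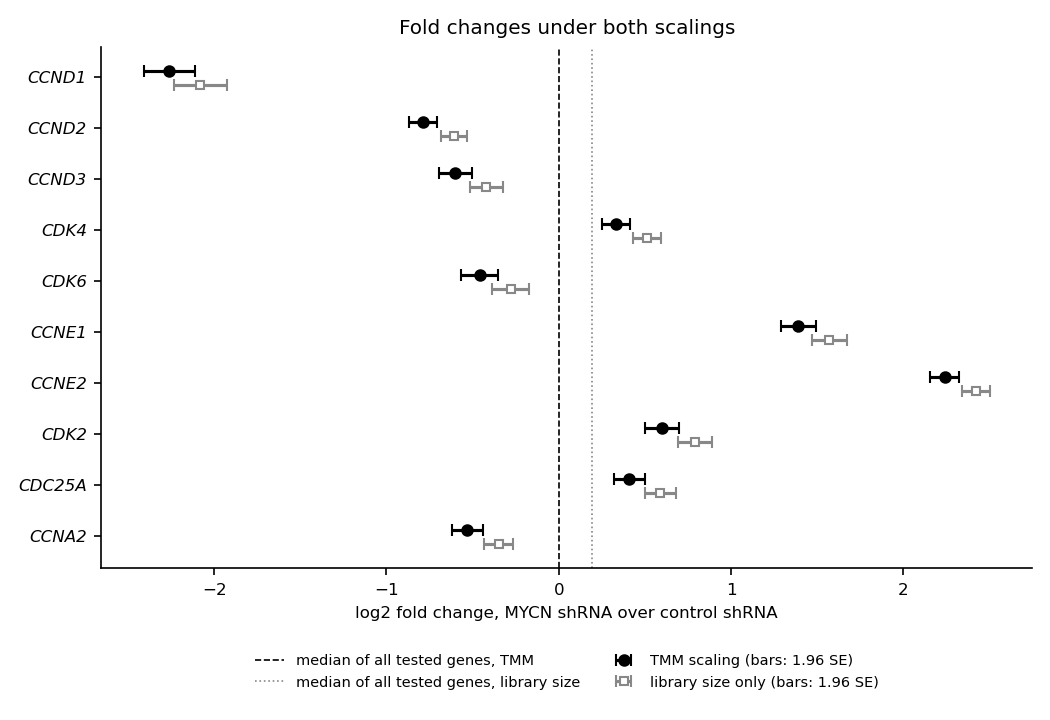
Log2 fold change of each member, MYCN shRNA over control shRNA, with bars of 1.96 SE, under TMM scaling (filled circles) and library size only (open squares). Vertical lines mark the median of all tested genes under each scaling (0.00 and 0.19), and each gene stays on its side of its line.

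To compare levels between genes, CPM were divided by the length of the merged annotated exons of each gene (GENCODE 29, GRCh38) in kilobases. With MYCN shRNA the order of these levels was CCNE2 (63.8 ± 1.2 CPM per kb; SD, n = 3), CDK4 (43.8 ± 0.323), CCNE1 (38.8 ± 1.38), CCNA2 (36.5 ± 0.529), CDC25A (28.2 ± 1.46), CDK2 (19.6 ± 0.800), CCND2 (17.5 ± 0.197), CCND3 (8.38 ± 0.0749), CDK6 (3.29 ± 0.147) and CCND1 (2.21 ± 0.336), and no neighbours in this order overlapped between libraries. With control shRNA it was CCNA2 (52.8 ± 3.90), CDK4 (34.9 ± 0.875), CCND2 (30.3 ± 1.33), CDC25A (21.3 ± 0.699), CCNE1 (14.8 ± 0.186), CCNE2 (13.5 ± 0.477), CDK2 (12.9 ± 0.270), CCND3 (12.7 ± 0.0544), CCND1 (10.6 ± 0.326) and CDK6 (4.54 ± 0.0820). There the libraries of CCNE2 overlapped those of CDK2, and those of CDK2 overlapped those of CCND3. On this scale CCNE2 was first of the 10 with MYCN shRNA and sixth with control shRNA, and CCND1 last with MYCN shRNA and ninth with control shRNA. These ranks depend on the length used. Per kb of 1 coding transcript, CCNE2 was again first and CCND1 last with MYCN shRNA, but CCNE2 was eighth with control shRNA. On that scale CCND3 stood above CCND2 in both groups (23.3 and 19.3 with MYCN shRNA, 35.3 and 33.4 with control shRNA). CDK2 came to 44.2 with MYCN shRNA, above CCNA2 and CDC25A, and to 29.1 with control shRNA, above CDC25A and both E cyclins. CDK4 (53.2) stood above CCNA2 (52.9) with control shRNA, and their libraries overlapped.

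Summed per kb of merged exons, the D cyclins came to 27.8, 28.0 and 28.5 CPM per kb with MYCN shRNA, against 52.7, 52.4 and 55.4 with control shRNA. The E cyclins came to 105, 102 and 101 with MYCN shRNA, against 27.7, 28.7 and 28.5 with control shRNA. The E to D ratio was therefore 3.76, 3.65 and 3.55 in MYCN shRNA libraries and 0.525, 0.547 and 0.514 in control libraries. Within the D cyclins, the share of CCND1 was 7.87% ± 1.14 with MYCN shRNA and 19.8% ± 0.213 with control shRNA (SD, n = 3 each), while CCND2 held 62.3% ± 0.839 and 56.5% ± 0.795. CCNE2 held 62.2% ± 0.947 of the E cyclins with MYCN shRNA and 47.8% ± 0.913 with control shRNA. CDK4 and CDK6 together came to 47.0, 47.5 and 46.6 with MYCN shRNA, against 40.2, 39.6 and 38.4 with control shRNA, and CDK4 held 93.0% ± 0.243 and 88.5% ± 0.156 of that sum. The shares depend on the length used. Per kb of 1 coding transcript, CCND3 held 51.7% of the D cyclins and CCND2 42.8% with MYCN shRNA. With control shRNA they held 43.8% and 41.5%. The mean E to D ratio on that scale was 2.94 with MYCN shRNA and 0.451 with control shRNA. The sums were chosen after their values were seen and carry no test.

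**Figure D4:**
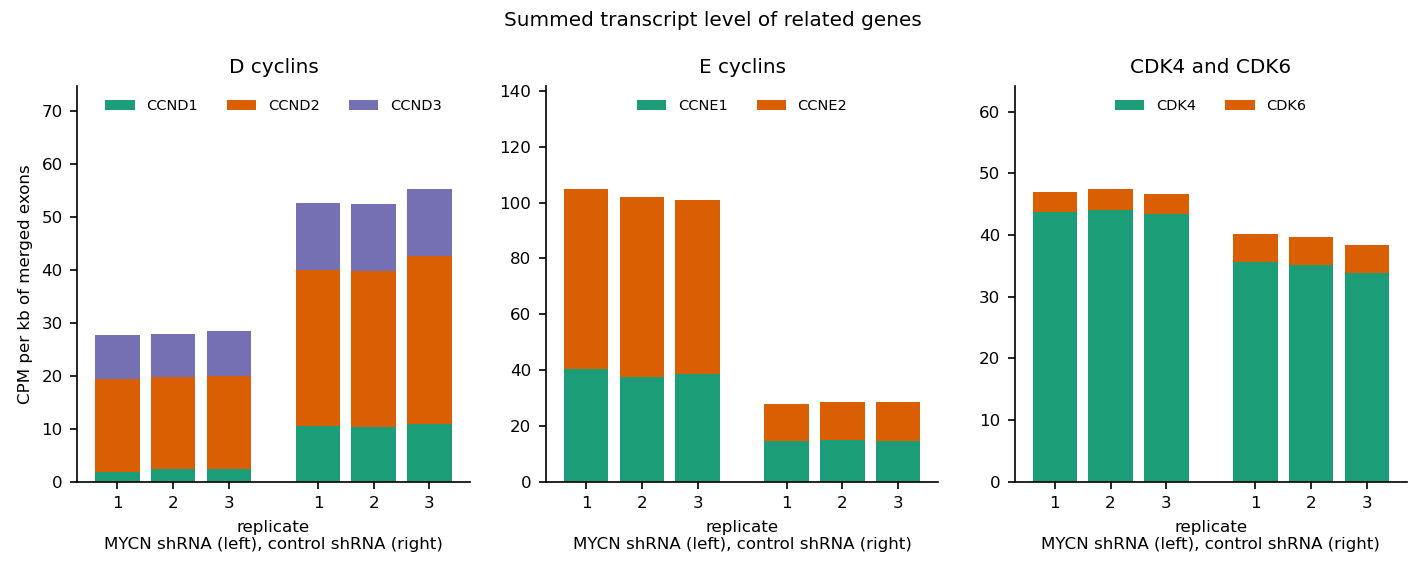
Summed level of the D cyclins, the E cyclins, and CDK4 with CDK6 in each library, in CPM per kb of merged exons, MYCN shRNA replicates left and control replicates right, with colours for single genes. The D cyclin bars are 27.8 to 28.5 against 52.4 to 55.4 and the E cyclin bars 101 to 105 against 27.7 to 28.7.

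Several members share exon bases with a gene on the opposite strand, and whether the counting used strand is not given in the sources used here, so reads in these overlaps cannot be assigned with certainty. CCNE2 (chromosome 8, 94879770 to 94896678) shares 1629 exon bases with INTS8, a subunit gene of the Integrator complex. INTS8 measured 120.4 ± 3.53 CPM with MYCN shRNA and 98.5 ± 1.74 with control shRNA (SD, n = 3 each), a log2 fold change of 0.29 against 2.24 for CCNE2. CDK4 (chromosome 12, 57747727 to 57756013) shares 1369 with TSPAN31, which fell by 0.54 ± 0.113 (edgeR adjusted p = 4.3e-05) at 8.30 ± 1.6 against 12.1 ± 0.539 CPM, a change opposite in sign to that of CDK4. CCND1 (chromosome 11, 69641087 to 69654474) shares 497 with LTO1, which stood at 8.66 ± 0.500 against 11.9 ± 0.763 CPM. CCNA2 (chromosome 4, 121816444 to 121823933) shares 254 with EXOSC9, at 110.0 ± 6.11 against 95.5 ± 7.04 CPM, and CDK2 (chromosome 12, 55966769 to 55972784) shares 89 with PMEL, at 0.544 ± 0.303 against 0.315 ± 0.0874 CPM. The deposited counts of CCNE2, CDK4 and CCNA2 were not whole numbers in any library, while those of the other members were whole. CCNE1 (chromosome 19, 29811898 to 29824308) overlaps no other annotated gene. CCND2 (chromosome 12, 4273772 to 4305350), CCND3 (chromosome 6, 41934933 to 42050357), CDK6 (chromosome 7, 92604921 to 92836594) and CDC25A (chromosome 3, 48157146 to 48188402) overlap only genes not listed in the table. Of these unlisted genes, AC008012.1 shares 989 exon bases with CCND2 on the same strand. CDK2 also shares 565 with the antisense gene AC025162.1, likewise not listed. CCND2, CCND3 and CDK4 also have annotated processed pseudogenes, which can share reads with them.

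Other genes of the same pathway were counted in 7 lists with 105 genes in all. Their counts stand beside a background of 38.0% of all tested genes called higher and 37.9% called lower. Of 9 tested pocket protein and CDK inhibitor genes, 7 rose, 0 fell and 2 did not pass, with a median log2 fold change of 0.52 beside 0.00 for all tested genes. CDKN1A, the p21 inhibitor of CDK2 complexes, measured 694 ± 40.7 CPM with MYCN shRNA and 303 ± 10.8 with control shRNA (log2 fold change 1.2 ± 0.042, edgeR adjusted p = 9.2e-27). CDKN2C, the p18 inhibitor of CDK4 and CDK6, measured 85.5 ± 4.62 and 37.7 ± 1.06 CPM and rose by 1.18 ± 0.054 (edgeR adjusted p = 8.0e-23). RB1 transcripts were counted at 134 ± 3.46 and 96.1 ± 6.89 CPM, and counts per gene do not show whether a functional product is made.

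Of the 10 E2F and DP transcription factor genes, 7 rose, 2 fell and the list's median was 0.18. E2F7 and E2F8, atypical family members that repress E2F targets, rose by 1.81 ± 0.045 and 0.96 ± 0.108 on the log2 scale (edgeR adjusted p = 3.9e-32 and 1.3e-10), E2F7 to 219 ± 3.46 CPM with MYCN shRNA against 62.5 ± 3.71 with control shRNA. E2F2, an activator, fell by 1.09 ± 0.058 (edgeR adjusted p = 1.3e-20), and E2F4, which works mainly with pocket proteins as a repressor, fell by 0.32 ± 0.051 (edgeR adjusted p = 3.8e-07).

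Among the 16 genes that activate, restrain or degrade cyclin-CDK complexes, 7 rose and 6 fell, with a median of 0.13, and with scaling by library size alone 10 rose and 2 fell. WEE1, the kinase that opposes CDC25 phosphatases, rose by 0.97 to 189 ± 6.18 CPM with MYCN shRNA against 96.6 ± 2.07 with control shRNA (edgeR adjusted p = 1.0e-23), and CUL1, the scaffold of the SCF ubiquitin ligase that degrades cyclin E, rose by 0.60. CKS1B, a small subunit that binds the kinases and helps degrade p27, measured 37.2, 42.3 and 42.3 CPM with MYCN shRNA against 115, 123 and 108 with control shRNA and fell by 1.51 ± 0.054 (edgeR adjusted p = 3.5e-26). CDK7, the kinase that phosphorylates the activation loop of the others, fell by 0.37.

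The genes that S phase cyclins act with were mixed. Of 24 S phase entry genes known as E2F targets, 9 rose and 13 fell, with a median of -0.18. RRM2 and TYMS, which supply deoxynucleotides, rose by 0.77 and 0.59, while the replication factor genes GINS1 and MCM4 fell by 0.79 and 0.43. Of 15 mitotic genes, 4 rose and 7 fell, with a median of -0.05, and with scaling by library size alone 8 rose and 5 fell. TOP2A rose by 0.31 and KIF11 by 0.23, whereas the kinase gene AURKB fell by 1.10 and NUSAP1 by 0.48.

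Of 15 tested genes for cyclins outside G1 and S phase, 5 rose and 8 fell, with a median of -0.13. CCNF, a cyclin that serves in a ubiquitin ligase, rose by 0.56 and CCNY by 0.32, while CCNI fell by 0.87 and CCNG1 by 0.62. Of 14 other cyclin-dependent kinase genes, 5 rose and 5 fell, with a median of -0.02, which is close to the shares of all tested genes. CDK19 of the Mediator kinase module rose by 0.88 and CDK14 by 2.25, where CDK14 was low (5.46 ± 0.383 CPM with MYCN shRNA, 1.14 ± 0.226 with control shRNA), while CDK18 fell by 1.15 and CDK10 by 0.53. Scaling by library size alone moved the list medians up with the rest of the table, and 3 of them changed sign: other cyclins stood at 0.06 (7 higher, 4 lower), other kinases at 0.16 (8 higher, 3 lower) and mitotic genes at 0.13.

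**Figure D5:**
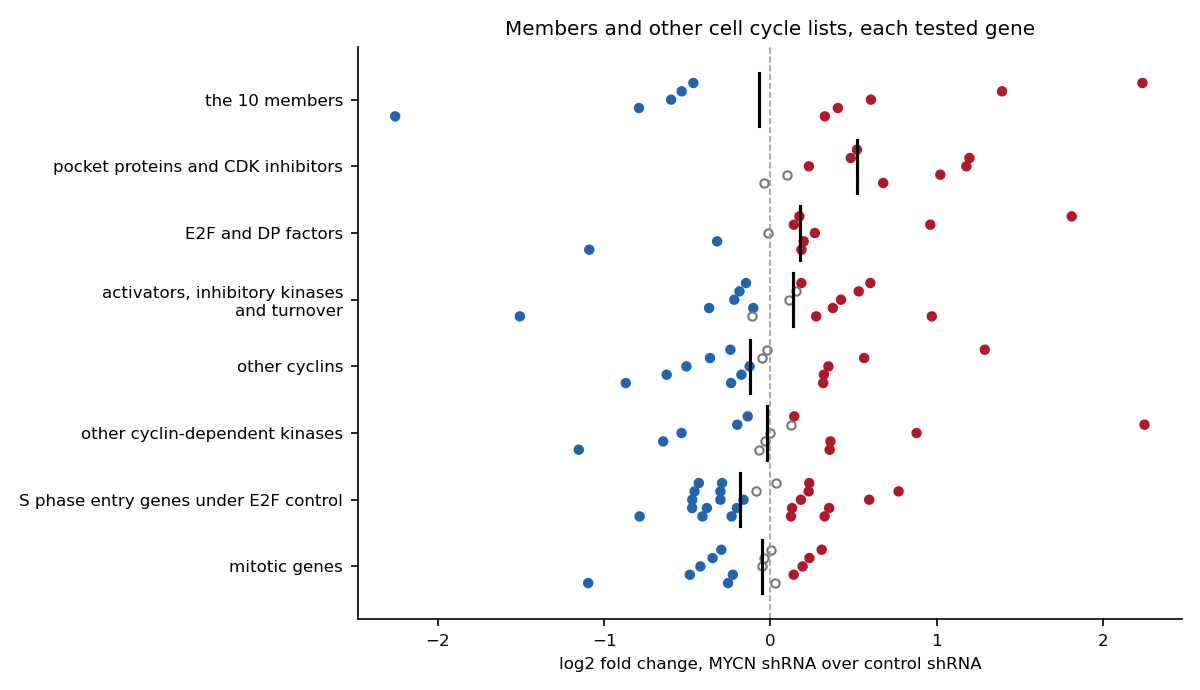
Log2 fold change (MYCN shRNA over control shRNA) of each tested gene in the 10 members and the 7 other lists. Red points were called higher, blue points lower, open points did not pass, and black ticks are list medians, which under TMM scaling run from -0.18 (S phase entry genes) to 0.52 (pocket proteins and CDK inhibitors). CCND1, CCNE1 and CCNE2 reach further from 0 than any S phase entry or mitotic gene shown. In other lists, CDK14 at 2.25, E2F7 at 1.81 and CKS1B at -1.51 lie further from 0 than CCNE1 at 1.39.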

How the data were processed

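Poly(A) RNA of 6 Y79 libraries was measured. The table the authors deposited holds estimated counts for each gene and library, not scaled between libraries, of which 12.5% to 12.8% were not whole. GRCh38 is the build named in the submitters' processing notes; the sources used here do not state the aligner, counter, strand setting or annotation. The 22 rows with no value, of 17035, were dropped.

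After rounding, genes that passed filterByExpr (minimum count 10) were tested with edgeR 4.0.16 in R 4.3.3 (robust quasi-likelihood, TMM factors 0.930 to 1.070, Benjamini-Hochberg at 0.05). Standard errors were derived from the F statistic. Ratios between members used unrounded counts, in Python 3.11.15 with scipy 1.17.1 and pandas 2.3.3. The fit was tested on simulated data with the depths of these libraries (12717 genes, 50 of them changed at each fold size). There, 58% of genes set to a 1.2-fold change were called and 96% at 1.5-fold, along with 8 unchanged genes. In the real data 75.8% of tested genes were called, so the scaling and the error rate at such a share were not tested.

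Members, lists and tests were chosen with earlier results of these data known. Named genes are the 10 members, MYCN, genes overlapping a member, and in each list the 2 called genes per direction with the smallest p. RB1, RPE65, BEST1, 5 Müller glia and 8 photoreceptor markers were named after their values were seen. No replicates were identical (chi-square per degree of freedom 1.75 to 4.42). The edgeR common biological coefficient of variation was 3.34%, and the very small p-values rest on this small spread between libraries. Alternatives were RLE factors, upper quartile factors, library size alone, no low-count filter, 1 CPM in 3 libraries, DESeq2 1.42.0, limma-voom (limma 3.58.1), a replicate block, and leaving out each library.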

Additional observations from a re-analysis of the deposited data

How the results depend on the processing

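Each of the 10 members kept its direction and its call under every alternative run, including each library left out and the replicate block, with 5 called higher and 5 lower throughout. Over these, the log2 fold change of CCND1 ranged from -2.33 to -2.08 and that of CCNE2 from 2.20 to 2.42. Over the 7 other lists, 44 genes were called higher and 41 lower, and with library sizes alone 59 and 25. Without 1 library the list counts were 42 to 47 higher and 38 to 42 lower, and those of all genes 4681 to 4835 higher and 4662 to 4852 lower. Among other cyclin-dependent kinases, 3 instead of 5 were lower without MYCN shRNA replicate 1, with upper quartile factors or with library sizes alone, and the last of these also had 8 instead of 5 higher. Library sizes alone gave 10 higher and 2 lower instead of 7 and 6 among activators and turnover genes, 7 and 4 instead of 5 and 8 among other cyclins, and 8 and 5 instead of 4 and 7 among mitotic genes. The 6 ratios kept their direction without any 1 library, with log2 differences of -1.56 to -1.34 (CCND1 to CCND2), -1.75 to -1.54 (CCND1 to CCND3), -0.22 to -0.16 (CCND2 to CCND3), -0.87 to -0.81 (CCNE1 to CCNE2), 0.77 to 0.82 (CDK4 to CDK6) and -1.98 to -1.88 (CCNA2 to CCNE1).

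Replicate numbers are shared between groups, and same-numbered libraries deviated together only weakly (correlations 0.12, 0.10 and 0.03 over 12819 genes). Differently numbered libraries had correlations of -0.14 to 0.04. Whether the numbers pair the libraries cannot be decided from values this small, and the main test used no pairing. With the replicate block, 4967 genes were called higher and 4939 lower, and within-number differences of the ratios gave exact p = 0.25, the smallest that 3 pairs allow. Counting error is small at these depths; CCND1 with MYCN shRNA rests on 531 counts in 3 libraries.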
